A study of Mus musculus with 14 samples.

Results

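Pluripotent lines derived from mouse germline stem cells (gPS cells) of the OG2 background were compared with embryonic stem cells (ESC). The comparison took the 3 samples whose source label names gPS cells from OG2 and the 2 samples labelled as ESC, which are 5 of the 14 listed samples. Of 25697 probes on the Illumina Mouse-8 v2 array, it covered the 10540 that passed a detection p of 0.01 on at least 2 of these 5 arrays. Each sample was hybridised to 1 array. All values are log2 normalized intensities, and differences are gPS OG2 minus ESC unless another pair is named.

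The gPS OG2 samples are cell lines 1, 2 and 3, carry the Oct4-GFP transgene and have C57BL6 as strain; the series text calls the lines clonal, so each stands for 1 clone. The ESC samples are replicates 1 and 2, also C57BL6, with no transgene named. Germline stem cells (GSC) of the OG2 background, labelled unipotent and of the same strain and transgene, had 3 lines. The gPS OG2-ROSA lines, also 3, carry Oct4-GFP x Lacz on a C57BL6 x 129sv background, and strain cannot be told apart from the second transgene there. The series text says that samples were hybridised in duplicate, biological or technical, without saying which for ESC. The titles of both ESC samples and of all OG2 lines end in the same mark, biol rep2, which does not say whether the ESC samples were separate cultures. They may therefore come from 1 culture, and p-values may then measure technical spread only on that side.

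Pluripotent stem cells keep the capacity to form all tissues of the body through a network of transcription factors centred on Oct4 (gene Pou5f1), Sox2 and Nanog. Cultured germline stem cells of the testis have some of these factors and normally give rise to sperm only, but can convert to pluripotent cells in culture. Male germ cells carry paternal imprints, the DNA methylation marks that make some genes expressed from 1 parental copy, while embryonic stem cells carry marks of both parents.

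The ESC arrays were close to each other and the gPS OG2 lines were not. Only 43 probes (0.408%) differed at least 2-fold between the ESC arrays, against 1237 (11.7%) between gPS OG2 lines 1 and 2, 709 (6.73%) between lines 1 and 3 and 548 (5.2%) between lines 2 and 3. A line and an ESC array were 2-fold apart at 738 to 1127 probes. A pair of gPS OG2 lines could thus differ as much as a line and ESC. Mean signal was 513 to 561 on the gPS OG2 arrays and 622 and 584 on the ESC arrays, with 9649 to 10247 probes detected per array.

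All 9 measured markers of pluripotent cells, each taken at its brightest probe, were detected on all 5 arrays. Their mean level was 11.10 to 11.37 in the gPS OG2 lines, 11.24 and 11.20 in ESC, and 6.68 to 7.32 in GSC OG2. A dimmer probe of Tdgf1, 1 of the 9, was undetected in every line and was called lower, as described below. None of 8 germline markers was detected on all 3 gPS OG2 arrays. Their mean level was 6.08, 5.05 and 5.51 in lines 1, 2 and 3, 5.26 and 5.45 in ESC and 10.96 to 11.3 in GSC OG2. Dazl, which binds germ cell RNAs, read 6.92 in line 1 against 5.03 and 5.02 in the others. Stra8 (7.29), Egr4 (6.43), Sohlh1 (6.14) and Taf7l (6.07) were likewise highest in line 1, and each of these 5 genes was detected on 1 or 2 gPS OG2 arrays and on 0 ESC arrays. Of 8 fibroblast markers, 1 was detected on all 3 lines, at means of 5.43, 6.19 and 6.43 in lines 1, 2 and 3 and 5.91 and 5.93 in ESC. The labels were thus borne out by these markers.

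At a Benjamini-Hochberg adjusted p under 0.05 in the limma fit, 128 of 10540 probes (1.21%) were called. Of these, 50 (0.474%) were higher and 78 (0.74%) lower in the gPS OG2 lines, and 120 (1.14%) differed at least 2-fold. On all 128 the lines lay beyond both ESC arrays, but such separation was common, at 3803 probes (36.1%). The median difference of all tested probes was -0.02, and 80.3% lay within 0.5. With the ESC arrays averaged to 1 sample, 18 probes were called. The count was also 18 without ESC replicate 1, 10 without ESC replicate 2 and 60 without gPS OG2 line 3. Of the 29 called genes named here by rule, 8 kept their call with the ESC arrays averaged: Nod1, Slc4a3, Obsl1, Fez1, Olig1, Pmel, Ubd and Fam25c. In the fit and in all 18 alternatives, 10 probes of 8 genes were called: Olig1, Pmel, Ubd, Fam25c and 1700123O20Rik, which were lower, and Slc4a3 (3 probes), Obsl1 and Nod1, which were higher.

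**Figure D1:**
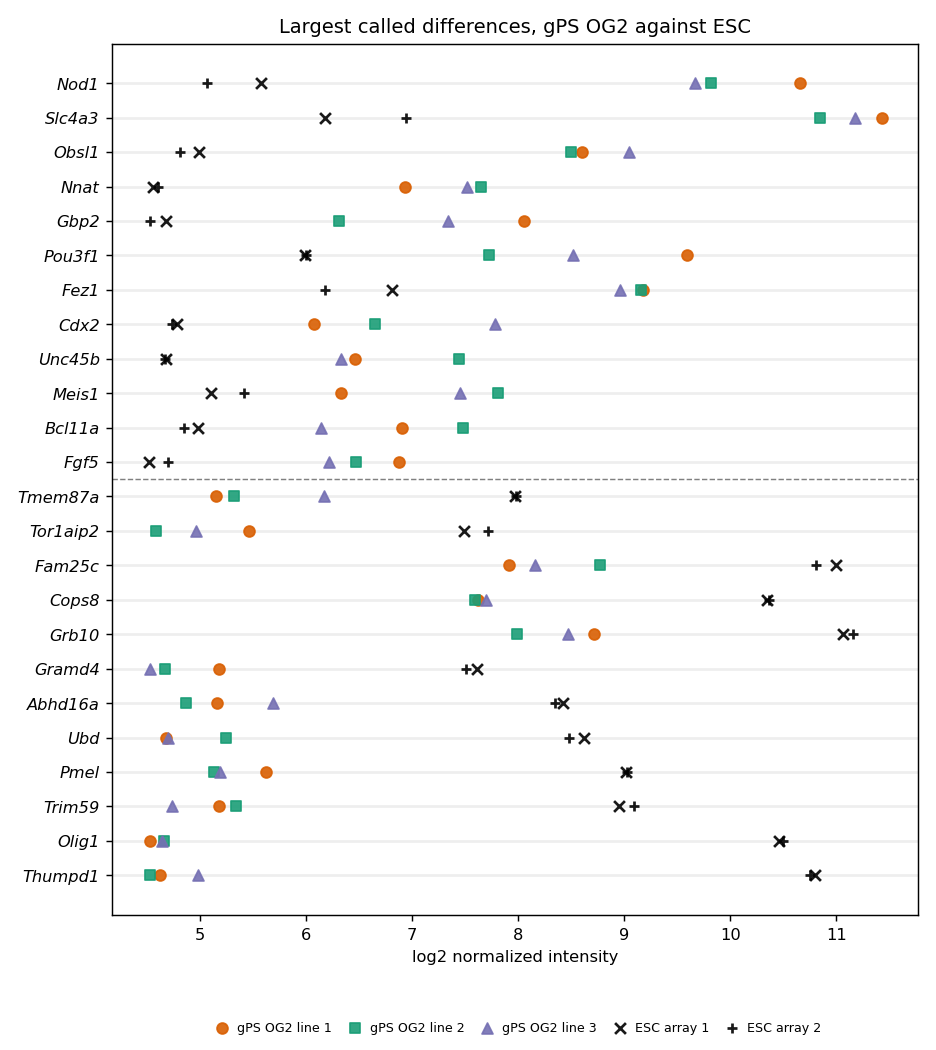
Log2 normalized intensity (x axis) of the 12 genes with the largest called increase (above the dashed line) and the 12 with the largest called decrease (below it) in gPS OG2 against ESC, 1 point per array. The lines and the ESC arrays do not overlap in any row, and the spread between lines is widest for Pou3f1, Gbp2 and Cdx2 among the genes that were higher.

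Nod1, an intracellular sensor of bacterial cell wall fragments, showed the largest increase when each gene was taken at its brightest probe. A dimmer probe of Slc4a3 differed by slightly more (4.82), and without background correction Slc4a3 came first (3.57, against 3.01 for Nod1). Nod1 read 10.66, 9.82 and 9.67 in lines 1, 2 and 3 and 5.58 and 5.07 on the ESC arrays, where it was not detected. All lines stood far above both ESC arrays. The difference was 4.73 ± 0.34 (SE; limma adjusted p = 1.5e-05), and the fold was at least 15.3, the bound set by the lowest detected signal on each ESC array. Nod1 was at 6.30 ± 0.23 in GSC OG2 and 9.45 ± 0.52 in gPS OG2-ROSA (SD, n = 3 each).

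Slc4a3, an anion exchanger of the plasma membrane, read 11.43, 10.85 and 11.18 in the lines and 6.18 and 6.94 in ESC. All 3 of its probes were called, with differences from 3.23 to 4.82. Obsl1, a cytoskeletal adaptor, read 8.60, 8.50 and 9.05 against 4.99 and 4.81, a difference of 3.81 ± 0.40 (SE; limma adjusted p = 0.00037) and at least 6.05-fold. Both genes were separated from ESC in every line and lie on chromosome 1 with 2 genes between them in gene order. Of those between, Stk11ip was tested: it read 6.34, 5.81 and 6.39 against 5.32 and 5.14, with an adjusted p of 0.0774 by limma.

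Nod1 also has a called neighbour. Ggct, an enzyme of glutathione breakdown, is the next gene on chromosome 6, and 2 of its 4 tested probes were called, with differences over all 4 from 0.79 to 2.11. Its brightest probe read 10.91, 10.14 and 10.28 against 9.20 and 9.36 and was not called (limma adjusted p = 0.0863). Among 109 called genes with a place in the RefSeq gene order, 6 pairs had at most 3 genes between them. Igdcc4 and Igdcc3, neighbouring immunoglobulin superfamily genes on chromosome 9, were another pair, higher by 1.65 and 1.62. The neighbour pairs were picked out after the values were seen.

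The promoters of the pairs Nod1 and Ggct and Slc4a3 and Obsl1 are given because Nod1, Slc4a3 and Obsl1 had the 3 largest called increases and Ggct is the called neighbour of Nod1. Each runs 250 bases before to 50 after the annotated start (RefSeq, GRCm38.p6), with CG, the dinucleotide that carries DNA methylation, in capitals. The motif searched was CG, which reads alike on both strands.
Nod1: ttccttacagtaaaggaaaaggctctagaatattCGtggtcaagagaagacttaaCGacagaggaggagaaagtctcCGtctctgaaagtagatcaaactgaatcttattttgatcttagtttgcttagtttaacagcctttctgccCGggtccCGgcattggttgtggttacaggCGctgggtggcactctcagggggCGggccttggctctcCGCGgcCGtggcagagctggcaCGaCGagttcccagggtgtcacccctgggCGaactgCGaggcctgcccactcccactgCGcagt
Ggct: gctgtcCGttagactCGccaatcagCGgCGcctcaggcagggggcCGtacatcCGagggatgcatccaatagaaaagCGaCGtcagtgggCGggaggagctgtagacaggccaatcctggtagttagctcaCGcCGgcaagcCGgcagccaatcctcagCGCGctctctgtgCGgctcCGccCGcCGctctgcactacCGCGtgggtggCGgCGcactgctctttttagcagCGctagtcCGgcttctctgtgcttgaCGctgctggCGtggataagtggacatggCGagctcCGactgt
Slc4a3: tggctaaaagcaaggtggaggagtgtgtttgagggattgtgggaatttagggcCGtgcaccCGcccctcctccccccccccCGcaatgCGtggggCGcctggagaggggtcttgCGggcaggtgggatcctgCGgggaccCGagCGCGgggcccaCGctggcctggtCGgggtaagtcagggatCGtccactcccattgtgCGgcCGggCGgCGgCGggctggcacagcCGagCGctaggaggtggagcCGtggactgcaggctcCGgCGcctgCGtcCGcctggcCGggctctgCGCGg
Obsl1: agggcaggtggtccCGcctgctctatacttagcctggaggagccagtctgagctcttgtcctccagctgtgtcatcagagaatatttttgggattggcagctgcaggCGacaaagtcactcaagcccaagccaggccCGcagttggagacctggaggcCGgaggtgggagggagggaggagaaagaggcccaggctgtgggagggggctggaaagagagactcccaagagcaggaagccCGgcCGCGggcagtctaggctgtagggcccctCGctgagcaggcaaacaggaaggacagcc

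The Nod1 window, chr6:54972563-54972862 on the minus strand, is 1 of 2 promoters listed for the gene and holds 15 CG, a number reached by 34.6% of the 32851 promoters listed. The Ggct window, chr6:54992818-54993117 on the minus strand, holds 28, reached by 14.2% of promoters. The Slc4a3 window, chr1:75546212-75546511 on the plus strand, also holds 28. The Obsl1 window, chr1:75506403-75506702 on the minus strand, holds 8, reached by 48.6%, where the median promoter holds 7. The 4 windows thus range from CG-rich to ordinary. DNA methylation was not measured.

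Other genes were higher to a smaller degree. Gbp2, an interferon-induced GTPase, read 8.06, 6.31 and 7.34 in the lines and 4.68 and 4.53 in ESC (difference 2.63 ± 0.45, SE; limma adjusted p = 0.0133), and 10.46 ± 0.20 in GSC OG2 (SD, n = 3). Fez1, a neuronal transport adaptor, read 9.18, 9.16 and 8.96 against 6.81 and 6.18, and both of its probes were called. The spread between lines was wide for Gbp2 and narrow for Fez1. The Gbp2 call was lost with the ESC arrays averaged (limma adjusted p = 0.193) and without gPS OG2 line 3 (0.0519). Unc45b, a myosin chaperone, Meis1, a homeobox factor, and Bcl11a, a zinc finger factor, were higher by 2.06, 1.94 and 1.93. None of these 3 was detected in ESC, and their call was lost with the ESC arrays averaged. Meis1 on chromosome 11 was also lost once chromosome medians were removed (limma adjusted p = 0.08). A second Unc45b probe differed by 0.90 without a call (limma adjusted p = 0.312), and line 1 overlapped ESC there.

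Olig1, which acts in oligodendrocyte development, was the decrease with the lowest adjusted p. It read 4.53, 4.66 and 4.64 in the lines, undetected in each, and 10.46 and 10.50 in ESC. The difference was -5.87 ± 0.34 (SE; limma adjusted p = 2e-06), and the fold at least 21.5. Its level in the gPS OG2 lines lay near that of GSC OG2 (5.18 ± 0.22), whereas gPS OG2-ROSA lines read 11.06 ± 0.81 (SD, n = 3 each). Olig1 was chosen as a neural marker, and of the other 4 neural markers, Pax6, Sox1 and Zic1 were undetected in gPS OG2 and ESC alike. Nes, an intermediate filament of neural progenitors, read 6.01, 6.15 and 6.71 in the lines, detected in 2 of them, and 5.59 and 5.75 in ESC, where it was undetected.

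Pmel, a melanosome fibre protein, read 5.62, 5.13 and 5.19 in the lines and 9.02 and 9.03 in ESC. Both of its probes were called, and the brighter was at least 7.87-fold lower. Ubd, a ubiquitin-like modifier, read 4.68, 5.25 and 4.70 against 8.62 and 8.48, at least 5.67-fold lower. Neither gene was detected in any gPS OG2 line. Fam25c read 7.91, 8.77 and 8.16 against 11 and 10.81 (difference -2.62 ± 0.30, SE; limma adjusted p = 0.000823). It stayed detected in every line.

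A further set of probes was low in gPS OG2 and also in some GSC lines. The Thumpd1 probe (a tRNA acetylation cofactor) read 4.62, 4.53 and 4.98 in the lines and 10.80 and 10.75 in ESC, at least 26.4-fold lower. In GSC OG2 the same probe read 5.74, 4.55 and 8.98 in lines 1, 2 and 3. The Trim59 probe (a RING finger protein) read 5.18, 5.34 and 4.74 against 8.95 and 9.09, and 5.01, 4.73 and 7.88 in GSC OG2. In both cases GSC line 3 alone was high. Neither call held with the ESC arrays averaged (limma adjusted p = 0.0634 for Thumpd1 and 0.24 for Trim59). The probes of Abhd16a, Cops8 and Mff followed this order, a likeness noticed after the values were seen.

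These probes need care, because other probes of the same gene can disagree. Mff had a probe with a difference of -3.75 and a second probe with a difference of 0.21. Tdgf1, the Nodal co-receptor Cripto, had a probe that read 4.61, 5.07 and 4.67 in the lines against 9.23 and 9.08, while its other probe read 9.53, 8.64 and 8.52 against 8.52 and 8.44. The first Tdgf1 probe was undetected in gPS OG2 and the second was detected on all 5 arrays. Of 32 genes with several tested probes and at least 1 called, 7 had every tested probe called and 17 had probes whose differences lay at least 2-fold apart. Thumpd1, Trim59, Abhd16a, Cops8, Gramd4 and Olig1 each had 1 tested probe.

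Gramd4, Tor1aip2 and Tmem87a were lower by 2.77, 2.61 and 2.43 on the log2 scale at their brightest probes. At these probes Gramd4 and Tor1aip2 were undetected in every line. The adjusted p values of the 3 probes lay between 0.00287 and 0.0216 (limma), and none of the 3 passed with the ESC arrays averaged. A second Tor1aip2 probe was detected in 1 line and differed by -1.19 without a call (limma adjusted p = 0.209).

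Of 37 tested members of a list of core and naive pluripotency factors, 1 was higher and 0 were lower, beside 0.474% and 0.74% of all probes. The median difference was 0.01, beside -0.02. The difference from ESC was within 0.5 in 67.6% of them, beside 80.3% of all probes, and 40.5% had a range over the lines of at least 2-fold, beside 15.7%. Pou5f1 read 13.13, 13.55 and 13.34 in the lines and 13.07 and 12.86 in ESC. Nanog read 11.81, 11.93 and 11.93 against 11.72 and 11.78, and Sox2 10.25, 10.15 and 10.21 against 10.32 and 10.39. These 3 core factors were within 0.38 of ESC. The limits for the difference were wide for Pou5f1 (95% interval -1.65 to 2.40) and Sox2 (-2.92 to 2.61), and narrow for Nanog (-0.35 to 0.63). The fit shares 1 spread over all groups, and Pou5f1 read 9.47 ± 2.53 in GSC OG2 and Sox2 8.63 ± 2.28 in gPS OG2-ROSA (SD, n = 3). That Sox2 spread came from line 2 of gPS OG2-ROSA, whose lines read 9.95, 6.0 and 9.93. At the other Sox2 probe the gPS OG2-ROSA lines read 10.31, 10.60 and 9.70. There the 95% interval for gPS OG2 minus ESC was -1.49 to 1.31.

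L1td1, an RNA-binding protein of pluripotent cells, was the called member. It read 12.70, 12.66 and 12.64 against 11.56 and 11.60, a difference of 1.09 ± 0.24 (SE; limma adjusted p = 0.0473), which was called in 7 of 18 alternatives. Other naive factors spread between lines. Zfp42 (Rex1) read 9.05, 10.22 and 9.68 against 10.29 and 10.10, and Klf5 11.58, 13.87 and 12.59 against 12.04 and 12.01. Line 2 was highest in both. Esrrb, Klf4 and Myc differed by -0.32, -0.25 and 0.69 without a call, and 2 of the 37 genes had a range over the lines of at least 4-fold.

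Of 38 spermatogonial genes on the array, 14 were tested, at mean levels of 8.34, 7.54 and 8.05 in the lines, 8.27 and 8.23 in ESC and 9.89 to 10.04 in GSC OG2. Of these 14, 0 were higher and 1, Tex14, was lower, beside 0.474% and 0.74% of all probes. Tex14, which forms the intercellular bridges of germ cells, read 7.90, 6.52 and 7.50 against 9.12 and 9.14, and 11.14 ± 0.12 in GSC OG2 (SD, n = 3). All lines lay below ESC, with a difference of -1.82 ± 0.34 (SE; limma adjusted p = 0.0221). Stag3, a cohesin subunit of meiosis and the called gene of 8 tested meiotic genes, read 7.16, 5.53 and 6.13 against 8.32 and 8.24. Neither call held with the ESC arrays averaged (adjusted p = 0.253 for both by limma). Transposon silencing by piRNAs, a germ cell pathway, had 7 tested genes, of which 0 were called (2 at an unadjusted p under 0.05). Ddx4 (Vasa) read 5.56, 5.42 and 5.96, undetected, against 6.56 and 6.42 in ESC.

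Imprinted genes were followed because the lines stem from male germ cells. Among 12 tested paternally expressed genes, 2 were higher and 0 lower, beside 0.474% and 0.74% of all probes. The median difference of these genes was 0.67, and 6 had all lines above both ESC arrays, beside 16.5% of all probes. A gene tested because it was detected in the lines alone must lie higher there, as holds for Nnat below, so these counts are a description. Nnat, a proteolipid of developing brain, read 6.93, 7.65 and 7.52 against 4.56 and 4.60, where it was undetected (difference 2.79 ± 0.44, SE; limma adjusted p = 0.00715; at least 2.38-fold). Peg10, a retrotransposon-derived placental gene, read 7.63, 7.55 and 7.92 against 6.32 and 5.81. Both were above ESC in every line, and both calls were lost with the ESC arrays averaged.

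The other paternally expressed genes were not called. Igf2, a fetal growth factor, read 11.50, 10.64 and 11.71 against 9.90 and 9.99 (limma adjusted p = 0.307). Snrpn, a splicing protein gene, read 13.78, 13.27 and 13.35 against 12.65 and 12.77. Both had every line above ESC. Ndn, a growth suppressor of neurons, read 10.53, 9.14 and 9.82 against 9.21 and 9.15, so that line 2 overlapped ESC. Line 1 was the highest line in 8 of the 12 genes (66.7%), beside 35.4% of all probes. Igf2, Snrpn and Ndn lie on chromosome 7, whose median was raised in line 1 as described below. The called gene Peg10 lies on chromosome 6, whose median was raised against ESC in every line. With chromosome medians removed on each array, the difference went from 1.34 to 1.25 for Igf2 and from 0.75 to 0.66 for Snrpn. For Peg10 it went from 1.63 to 1.42 and stayed called (limma adjusted p = 0.0442).

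**Figure D2:**
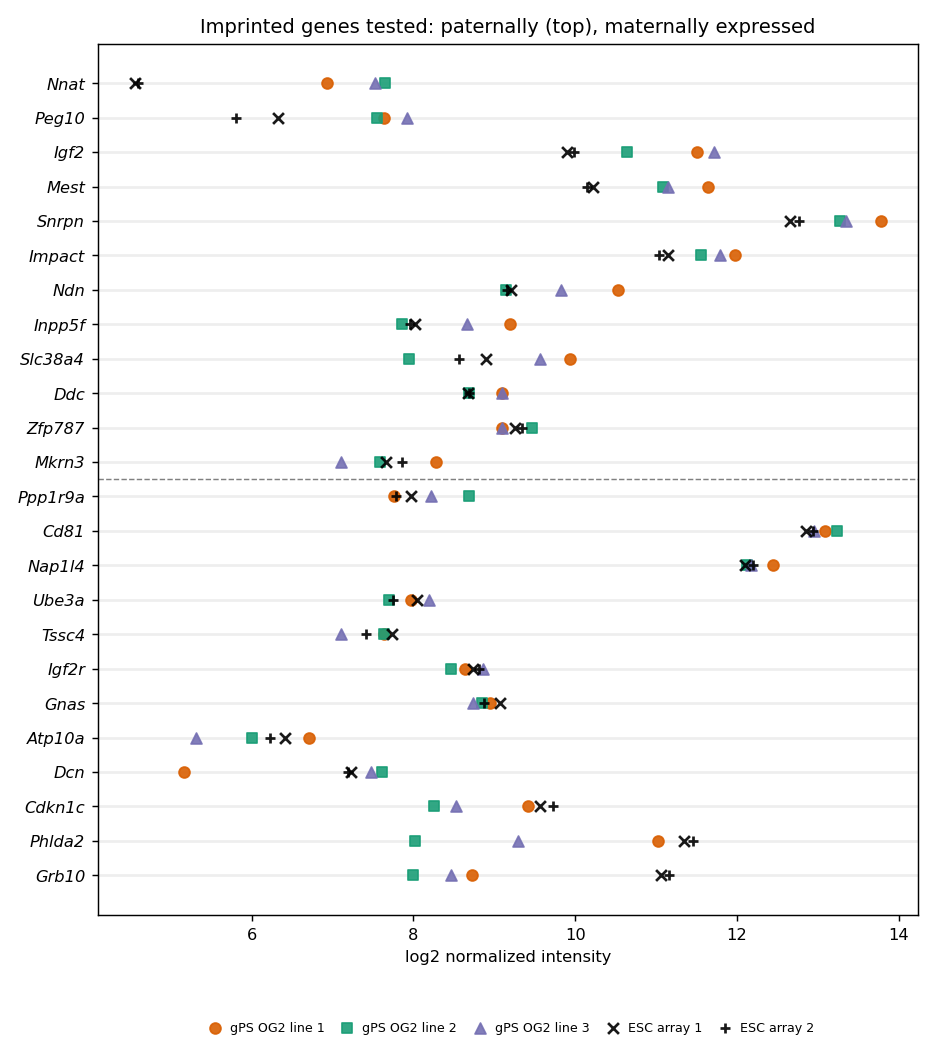
Log2 normalized intensity (x axis) of the 12 paternally (above the dashed line) and 12 maternally expressed imprinted genes tested, 1 point per array, ordered by their difference from ESC. Nnat, Peg10, Igf2, Mest, Snrpn and Impact have all lines above both ESC arrays, and Grb10, Phlda2 and Cdkn1c have all lines below.

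Among 12 tested maternally expressed genes, 0 were higher and 1 lower, beside 0.474% and 0.74% of all probes. In 3 of them all lines lay below both ESC arrays, beside 19.6% of all probes. Grb10, an adaptor that dampens insulin and growth factor signalling, read 8.72, 7.99 and 8.47 against 11.06 and 11.16. All lines lay below ESC, by -2.72 ± 0.54 (SE; limma adjusted p = 0.0302). The call was lost with the ESC arrays averaged (limma adjusted p = 0.309) and held in 11 of 18 alternatives. Phlda2, a placental growth suppressor, read 11.02, 8.02 and 9.29 against 11.34 and 11.45 and was not called (limma adjusted p = 0.204). Line 1 was close to ESC for Phlda2 and line 2 far below. Igf2r, the receptor that removes IGF2, read 8.64, 8.46 and 8.86 against 8.73 and 8.81.

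Genes of the primed epiblast, the state that follows naive pluripotency, were above ESC in 10 of 12 cases (83.3%), beside 47.4% of all probes. Of these 12, 2 were higher and 0 lower, beside 0.474% and 0.74% of all probes. The median difference was 0.58, and 8 had all lines above both ESC arrays, beside 16.5%. Pou3f1 (Oct6) read 9.59, 7.73 and 8.52 against 5.99 and 6.0 (difference 2.62 ± 0.55, SE; limma adjusted p = 0.0362; at least 5.64-fold). Fgf5, the growth factor of the epiblast, read 6.88, 6.47 and 6.22 against 4.52 and 4.70, at least 1.32-fold higher. Both were undetected in ESC, and neither call held with the ESC arrays averaged (limma adjusted p = 0.365 for Pou3f1 and 0.233 for Fgf5). The Pou3f1 call was also lost without gPS OG2 line 1 (0.0841) and held in 7 of 18 alternatives. Otx2, a factor of epiblast and forebrain, read 8.78, 7.26 and 7.81 against 7.2 and 7.22 and was not called, and Dnmt3b differed by 0.31. Line 1 was highest in 8 of the 12 genes.

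Of 27 primitive streak and mesoderm genes on the array, 6 were tested, and all 6 were above ESC, beside 47.4% of all probes. Their median difference was 1.41, and 4 had all lines above both ESC arrays, beside 16.5%. A gene that is tested because it was detected in the lines alone must lie higher there, so these counts, like those of the primed list, are a description. The called gene of the 6 was Cdx2, a caudal homeobox factor of posterior mesoderm and trophoblast, which read 6.08, 6.65 and 7.78 against 4.78 and 4.74. It was at least 1.65-fold higher, and line 3 had the most. Wnt8a, a Wnt ligand of the early streak and the called gene of 17 in the Wnt list, read 5.47, 6.18 and 7.13 against 4.51 and 4.58, and was detected in 2 of the lines. Fgf8, a streak growth factor, read 5.36, 7.36 and 7.86 against 4.76 and 5.16 (limma adjusted p = 0.114). In these 3 genes line 3 was highest and line 1 lowest. The Cdx2 and Wnt8a calls were lost with the ESC arrays averaged (limma adjusted p = 0.233 and 0.436). In the trophoblast list, which shares Cdx2 and Eomes with the streak list, 8 of 10 tested genes were above ESC, beside 47.4% of all probes. The median difference was 0.70 and Cdx2 was the called gene, and these counts too are a description. Of 15 extraembryonic endoderm genes and 3 tested genes of the two-cell-like state, 0 were called by limma (4 and 2 at an unadjusted p under 0.05).

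Signalling and housekeeping lists held 0 or 1 called gene each, beside 1.21% of all probes. In the FGF and ERK list, Fgf5 was the called gene of 17, and in the MHC class I and interferon list Nod1 was the called gene of 14. In limma, 0 of 13 LIF and JAK/STAT genes were called (2 at an unadjusted p under 0.05), 0 of 25 Nodal, BMP and TGF-beta genes (4), 0 of 16 Polycomb genes (2) and 0 of 15 DNA methylation genes (1). Of 29 cell cycle and 24 glycolysis genes 0 were called (5 and 2 at an unadjusted p under 0.05), beside 11.3% of all probes at that level. Dnmt3l, the cofactor of de novo methylation, read 14.28, 13.43 and 13.83 against 13.74 and 13.67. Plk1, a mitotic kinase, read 11.79, 11.45 and 11.42 against 10.42 and 10.48 (limma adjusted p = 0.122), and Lrp6, a Wnt co-receptor, 7.24, 6.68 and 6.61 against 5.19 and 5.35 (0.0896). Both had every line above ESC without a call. They were named after their values were seen.

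The lines differed from each other at many genes that were not called against ESC. A range over the 3 lines of at least 4-fold was found at 239 probes, none of them called against ESC, and the ESC arrays were 4-fold apart at 0 probes. Line 1 stood alone on the high side at 69 of these probes and on the low side at 51. Line 2 stood alone above the others at 32 and below at 69, and line 3 at 16 and 2. Line 3 was thus the least often set apart. These ranges describe single arrays and were not tested.

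**Figure D3:**
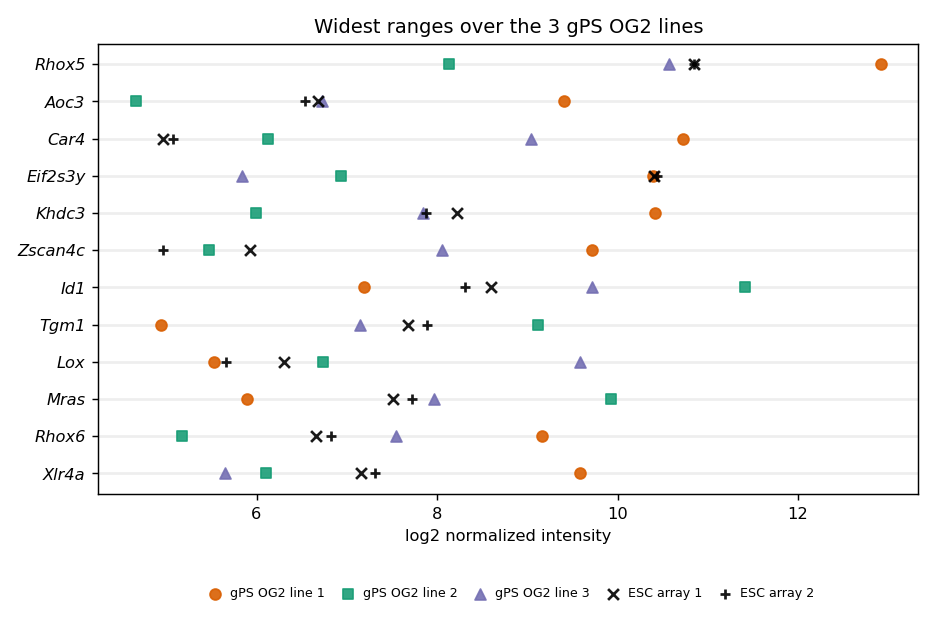
Log2 normalized intensity (x axis) of the 12 genes with the widest range over the 3 gPS OG2 lines, 1 point per array. Line 1 is the highest line for 8 of them, line 2 for Id1, Tgm1 and Mras and line 3 for Lox, and the ESC arrays lie close together in most rows.

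Rhox5, an X-linked homeobox gene, read 12.92, 8.13 and 10.57 in lines 1, 2 and 3 and 10.85 on both ESC arrays. Zscan4c, a marker of the two-cell-like state, read 9.72, 5.47 and 8.06 against 5.93 and 4.96, and Khdc3, an oocyte and embryo protein, 10.42, 5.99 and 7.84 against 8.22 and 7.88. For all 3 genes line 1 was highest and line 2 lowest. Car4, a membrane carbonic anhydrase that was also on the primed list, read 10.73, 6.13 and 9.04 against 4.96 and 5.07, with a limma adjusted p of 0.0774. It was called without line 2 (difference 4.87, limma adjusted p = 0.000504) but not without line 1 (0.13) or line 3 (0.209). Zscan4c was also called without line 2 (3.45, limma adjusted p = 0.00736) but not without line 1 (0.533) or line 3 (0.488). Line 2 was the lowest line for both genes, so these calls reflect the line left out.

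Among Nodal, BMP and TGF-beta genes, line 2 was the highest line in 10 of 25 (40%), beside 36.8% of all probes. Those with wide ranges included Bmp4 and Id1, named after their values were seen. Bmp4, a BMP ligand, read 9.19, 12.28 and 10.53 against 9.07 and 8.99, and its target Id1 read 7.19, 11.41 and 9.72 against 8.60 and 8.31. Both were highest in line 2 and lowest in line 1. Id3, another target, read 7.27, 7.88 and 7.47 against 7.59 and 7.52, so that the lines stayed close to ESC.

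Line 3 had the highest mean level of the stromal list, at 8.79 against 7.70 and 7.98 in lines 1 and 2. It was the highest line in 18 of 25 genes of the feeder fibroblast and stroma list (72%), beside 27.7% of all probes, although 0 of the 25 were called by limma (2 at an unadjusted p under 0.05). Lox, a collagen crosslinking enzyme, read 5.53, 6.74 and 9.58 against 6.30 and 5.66, and Acta2, smooth muscle actin, 10.51, 10.49 and 12.78 against 10.03 and 10.06. The keratin genes Krt8 and Krt18 were also highest in line 3, at 10.40 and 9.01. In line 1, Dcn, a fibroblast proteoglycan, read 5.17, against 7.61 and 7.47 in the other lines and 7.23 and 7.19 in ESC. Of the 8 fibroblast markers, Col1a1, Col1a2, Col3a1 and Postn were highest in line 3 and Dcn, Thy1, Pdgfra and Lum in line 2. Postn, Pdgfra and Lum were undetected in every line. In bulk RNA, more cells of a type and more RNA per cell cannot be told apart. Line 1 was the highest line in 17 of 24 glycolysis genes (70.8%), beside 35.4% of all probes. Among them was Eno2 (9.62, 7.39 and 7.71 against 6.85 and 6.72). These values still hold the raised medians of chromosomes 6, 7 and 11 in line 1, described below, and the list was not split by chromosome.

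Eif2s3y, a Y-linked translation factor, read 10.39, 6.94 and 5.84 in lines 1, 2 and 3 and 10.40 and 10.44 in ESC. Line 1 was close to ESC and the other lines were lower, line 3 being undetected. GSC OG2 read 10.31 ± 0.21 (SD, n = 3). Uty, the other tested Y-linked gene, read 6.67, 6.41 and 6.12 against 7.06 and 6.70. Xist, the RNA of the inactive X chromosome, was undetected on all 5 arrays.

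Whole chromosomes stood apart from ESC in single lines. Each line was set against the ESC mean over the 8191 probes that were detected on all 5 arrays and had a chromosome, and the median was taken per chromosome. In line 1 the medians were 0.41 on chromosome 6, 0.38 on chromosome 7 and 0.34 on chromosome 11, and -0.51 on chromosome 8. Its other chromosomes lay from -0.08 to 0.07 of the line's centre of -0.10. In line 2, chromosome 6 stood at 0.30, chromosome 14 at 0.23, chromosome 12 at 0.16 and chromosome 8 at -0.18. In line 3, chromosome 8 stood at -0.37, chromosome 6 at 0.16 and chromosome 1 at 0.15. Against ESC, chromosomes 6 (higher) and 8 (lower) were thus shifted the same way in all 3 lines, and 7, 11, 12, 14 and 1 in 1 line each. All lines are set against the same ESC mean, so a shift that they share cannot be told apart from one in ESC.

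**Figure D4:**
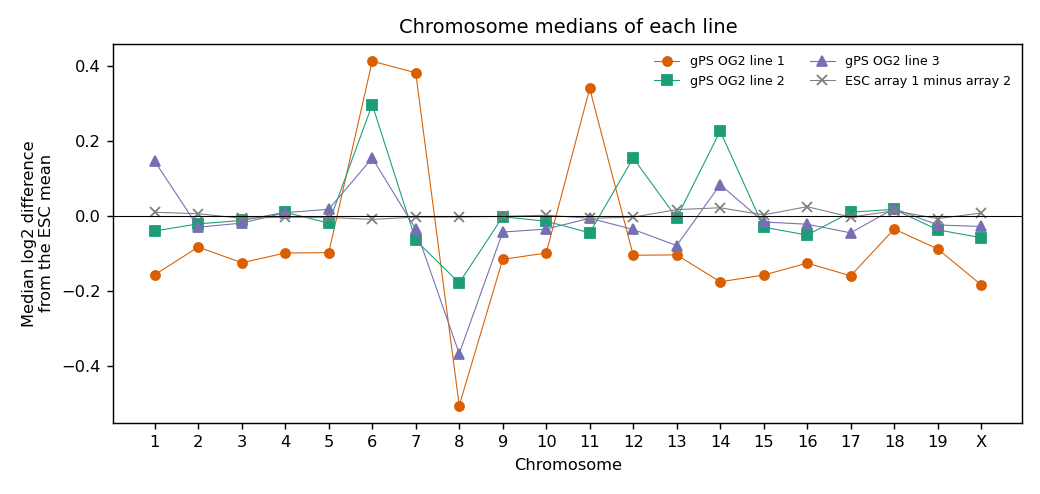
Median log2 difference from the ESC mean (y axis) of the tested probes of each chromosome (x axis), for each gPS OG2 line, with the difference between the ESC arrays in grey. Chromosomes 6, 7 and 11 stand high and 8 low in line 1, and no median of the ESC pair exceeds 0.025 in size.

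The shift showed on most genes of a chromosome rather than on a few. On chromosome 8, 12.2% of the 451 probes were above the ESC mean in line 1 and 14.4% in line 3, and on chromosome 11, 80.5% of 734 were above it in line 1. On chromosome 8 line 1 stood at -0.43 for dim probes, -0.57 for middling and -0.49 for bright ones. The smaller shifts varied more with signal: chromosome 6 of line 3 stood at 0.05, 0.18 and 0.17 for dim, middling and bright probes, and chromosome 12 of line 2 at 0.09, 0.13 and 0.21. The ESC arrays differed by at most 0.025 on any chromosome. The GSC arrays stayed between -0.04 and 0.05 of their median outside chromosomes 6 and 15, where they reached from -0.21 to 0.26. Measured the same way, against the median of all 8 pluripotent arrays, chromosome 6 stood at 0.24, 0.15 and 0.03 in lines 1, 2 and 3, all within the GSC range. Of the 60 chromosome medians of the gPS OG2 lines, 3 lay beyond that range, those of chromosomes 7 (0.34), 8 (-0.33) and 11 (0.29) in line 1. On chromosome 8 the ESC arrays stood at 0.14 and 0.15 on this scale and lines 2 and 3 at 0.01 and -0.16. The gPS OG2-ROSA lines 1, 2 and 3 stood at -0.12, -0.11 and 0.18 there.

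Along the chromosomes the shift was even in some lines and partial in others. On chromosome 8, line 2 stood at -0.45 over the first group of probes in gene order and at -0.06 and -0.02 over the middle and last groups. Line 1 stood at -0.43, -0.56 and -0.50 and line 3 at -0.38, -0.38 and -0.33. Line 2 thus matched the other lines over the first part and ESC over the rest. On chromosome 6, line 2 stood at -0.06, 0.47 and 0.35, where line 1 was raised throughout (0.38, 0.37 and 0.50). On chromosome 14, line 2 stood at 0.10, 0.18 and 0.59. DNA copy number was not measured, and no test was made of these medians.

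**Figure D5:**
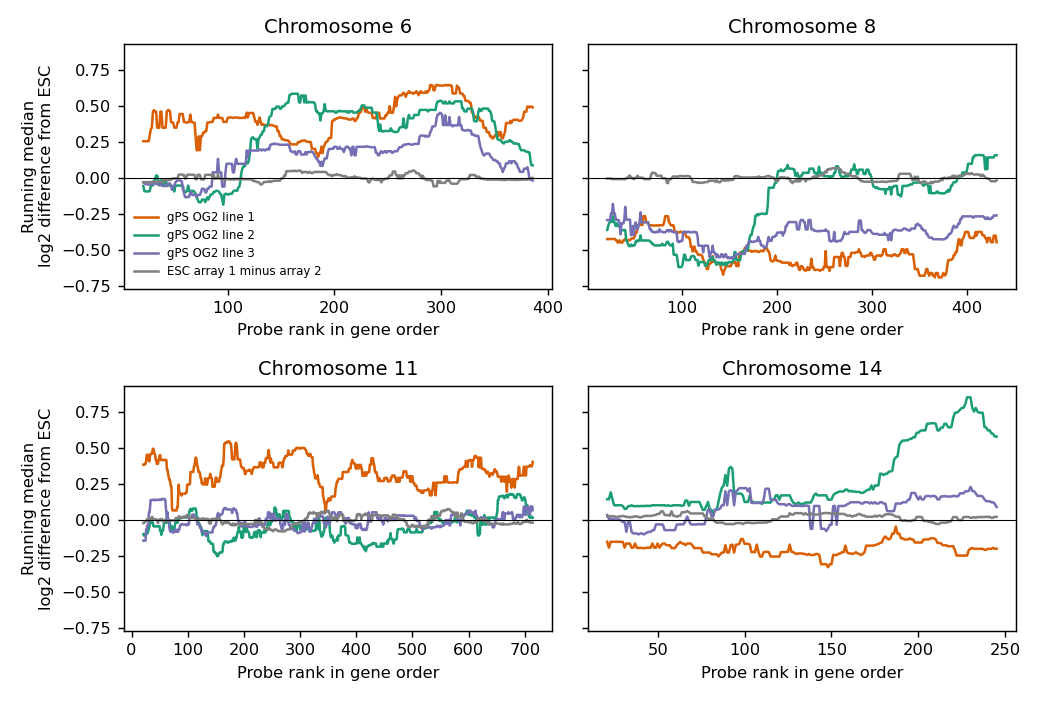
Running median over 41 probes (full windows) of the log2 difference from the ESC mean (y axis) against the rank of the probe in gene order (x axis) on chromosomes 6, 8, 11 and 14, 1 line per gPS OG2 line and the ESC pair in grey. Line 2 drops with the other lines over the first part of chromosome 8 and returns to ESC, steps up after the first part of chromosome 6, and rises over the last part of chromosome 14.

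The shifts bore on calls. On chromosome 8, 2 probes were called higher and 8 lower, and with the chromosome medians removed on each array 4 were higher and 0 lower. On chromosome 6 the 8 higher and 2 lower calls became 6 and 3. The total moved from 128 to 125. Nod1 on chromosome 6 kept a difference of 4.51, and 28 of 29 named called genes stayed called. Nanog, also on chromosome 6, changed from 0.14 to -0.08.

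The gPS OG2-ROSA lines were used to ask whether a difference from ESC depended on the background. Mean signal before normalization was 379, 308 and 580 on gPS OG2-ROSA arrays 1, 2 and 3, against 513 to 561 on the gPS OG2 arrays. Both sets of lines are set against the same ESC arrays, so the direct difference between them was tested, and 26 probes (0.247%) were called. Olig1 differed most: gPS OG2-ROSA read 11.56, 11.49 and 10.12, against 4.53, 4.66 and 4.64 in gPS OG2 (difference -6.45 ± 0.31, SE; limma adjusted p = 1.75e-07). Ubd read 7.0, 7.44 and 9.04 in gPS OG2-ROSA, and Fam25c 9.59, 10.30 and 10.09. Thumpd1 read 9.99, 10.01 and 9.92 there. Trim59 and Cops8 also differed. In all 6 genes the gPS OG2 lines were lower than every gPS OG2-ROSA line. These 6 were among the largest decreases of the same gPS OG2 arrays against ESC, so their direction here was favoured by the choice. Nod1, Slc4a3, Obsl1, Pmel and Grb10 were not called between the lines, with gPS OG2-ROSA at 9.45 ± 0.52, 9.91 ± 0.89, 7.32 ± 0.74, 5.79 ± 0.79 and 7.96 ± 1.30 (SD, n = 3). The OG2-ROSA titles lack a replicate mark that the OG2 and ESC titles carry. No label names a batch or says that the mark stands for one, so background and batch cannot be told apart here.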

How the data were processed

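The intensity deposited by the authors is a linear probe signal with a detection p-value per array, per the file headers; background had not been subtracted, as its values show. The authors' series value table is on a log2 scale, with the base inferred from its values, and served as an alternative. BeadStudio 3.2, RMA and lumi are named in the submitters' processing notes without their roles.

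Intensities were normalized over all 14 arrays with limma 3.58.1 in R 4.3.3 (neqc, offset 16). Means of the 5 groups were fitted with lmFit and eBayes, and p-values were adjusted by Benjamini-Hochberg over 10540 probes. A probe with an adjusted p under 0.05 was called. Genes were named through the platform annotation (23978 probes with 1 symbol, 0 with several, 1719 unlisted) and placed in RefSeq gene order (GRCm38.p6), whose coordinates were used for promoters alone. A gene with several probes was taken at the one with the highest mean over the 5 arrays.

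Named genes were the 12 largest called differences per direction, called list members, fixed genes and the 12 widest ranges over lines. The members and lists were chosen with earlier results of these data known. Line numbers did not pair arrays (deviation correlations with ESC of 0.005 and -0.007). The procedure was tested on simulated data. Alternatives covered background correction, scaling, probe filter, arrays fitted, weights, a replicate block and left-out arrays. The number of arrays limits the precision.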

Additional observations from a re-analysis of the deposited data

Results flagged for a closer look

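In 6 named genes the difference from ESC in gPS OG2 lines differed from that in gPS OG2-ROSA lines, by the direct limma contrast in which the ESC arrays cancel. The differences (gPS OG2 minus gPS OG2-ROSA, log2) were -6.45 for Olig1 (adjusted p = 1.75e-07), -5.26 for Thumpd1 (0.0157), -3.69 for Trim59 (0.0382), -2.95 for Ubd (0.0084), -2.15 for Cops8 (0.0396) and -1.71 for Fam25c (0.0207). Each line of the one set lay below each line of the other. All 6 had been named for large decreases in the same gPS OG2 arrays, so this direction was favoured by the choice. Thumpd1, Trim59 and Cops8 were also low in GSC OG2 lines 1 and 2, and Olig1, Ubd and Fam25c were at 5.18 ± 0.22, 5.32 ± 0.11 and 5.34 ± 0.22 in GSC OG2 (SD, n = 3). Whether strain, transgene or batch took part was not tested. Groups of 2 or 3 arrays are too small for a check of single outlying samples.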

How the results depend on the processing

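The 128 calls against ESC became 2044 with array weights and 18 with the ESC arrays averaged; leaving out 1 array in turn gave 10 to 118. The 120 calls of at least 2-fold became 63 with no background correction, 547 with array weights and 18 with the ESC arrays averaged, and 10 to 115 leaving out 1 array in turn. The cause of these changes was not tested. The other alternatives kept the count within 1.5 times, except that calls without gPS OG2 line 3 fell to 60. The 26 calls between gPS OG2 and gPS OG2-ROSA became 13 with median scaling, 16 with the authors' deposited values, 8 when normalized and fitted on the 2 groups alone, 8 with the 2 groups alone in the fit, 43 for probes detected on all arrays of 1 group, 9 with array weights, 11 with the line number as a replicate block and 10 with the ESC arrays averaged. Leaving out 1 array in turn gave 12 to 242, the highest without gPS OG2-ROSA line 3. With the replicate block, 96 probes were called against ESC and 24 of 29 named called genes stayed called. No called named gene changed sign; of the uncalled ones, 10 did in some alternative. Median scaling moved the median of all probes from -0.02 to -0.11. The removal of chromosome medians, which left 125 and 25 calls, and the distance of 0.15 from a line's centre that set chromosomes apart, were chosen after seeing the data. Median scaling lowered every chromosome of lines 1 and 3. Chromosome 2 moved from -0.083 to -0.195 in line 1 and from -0.03 to -0.132 in line 3. Chromosome 1 of line 3 moved from 0.15 to 0.02 and chromosome 8 of line 1 from -0.51 to -0.65. Most of each move was thus shared by the line's other chromosomes and was not a change in distance from its centre.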
